A study of Argyrosomus regius with 12 samples.

Results

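The comparison described here is that of the spleens of LPS-injected meagre (Argyrosomus regius, a marine bony fish) at 24 h with those at 4 h after the injection. It sets 6 of the 12 libraries of the series against each other, chosen by their labels alone: 3 pools for LPS at 4 h and 3 for LPS at 24 h. The other 6 libraries are the pools of fish injected with phosphate-buffered saline (PBS) at 4 h and at 24 h, which are not compared here but give reference levels. They also enter the model, where they share in the estimate of the spread, the scaling and the filter, and with the 6 LPS libraries alone no gene was called by edgeR (6973 at an unadjusted p below 0.05). All fish were juveniles of 22 g kept at 22 °C, with no strain or sex stated, and all were injected intraperitoneally. The LPS fish were given 10 µg per g of body weight of lipopolysaccharide from Photobacterium damselae subsp. piscicida strain Lg41/01. Each library came from the spleens of 4 pooled fish, so 3 pools stand for 12 fish, and differences between single fish cannot be seen. The fish at 24 h are not the fish sampled at 4 h.

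Lipopolysaccharide is the main component of the outer membrane of Gram-negative bacteria, and the bacterium it came from causes photobacteriosis, a septicaemia of farmed marine fish. The spleen of bony fish filters the blood, traps bacterial material in its ellipsoids and macrophage centres, and is a main site of the immune response. An acute inflammatory response typically holds genes that rise within hours and fall back, and others that change later. In a bulk spleen sample, fewer cells of a type and less RNA per cell cannot be told apart.

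The unit of the results is the Trinity gene, which is a group of assembled transcripts whose identifiers share all but the final isoform number. Counts of 58975 transcripts were summed to 42480 Trinity genes, of which 4467 hold several isoforms. The 32542 genes that passed the expression filter were tested. The identifiers carry no gene names in the data used here. Function and cell type can therefore not be given, and the tissue label was not checked against spleen markers. Total counts ran from 29614365 to 56556752 per library.

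The LPS 4 h pools were not alike. Against the mean of the 3 PBS 4 h pools, 26.9% of the tested genes were at least 2-fold higher or lower in LPS 4 h replicate 1 and 28.0% in replicate 3, but 5.56% in replicate 2. Among the PBS pools, each set against the other 2 of its time, this share ran from 7.01% to 11.3%. With references of 2 PBS pools, replicate 2 of LPS 4 h was at a mean of 6.53%, below all PBS pools. The LPS 24 h pools stood at 9.64%, 23.2% and 14.5% for replicates 1 to 3 against the PBS 24 h mean. Replicate 2 of LPS 24 h was thus farthest from PBS at 24 h, with 4891 genes at least 2-fold lower and 2656 higher. The median SD of log2 CPM (counts per 1e6 counts, scaled by TMM) over tested genes was 0.45 among LPS 4 h pools, 0.32 among LPS 24 h pools, 0.27 among PBS 4 h pools and 0.34 among PBS 24 h pools. Every pool kept its label. The results rest on all pools, and those without LPS 4 h replicate 2 stand beside them.

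**Figure D1:**
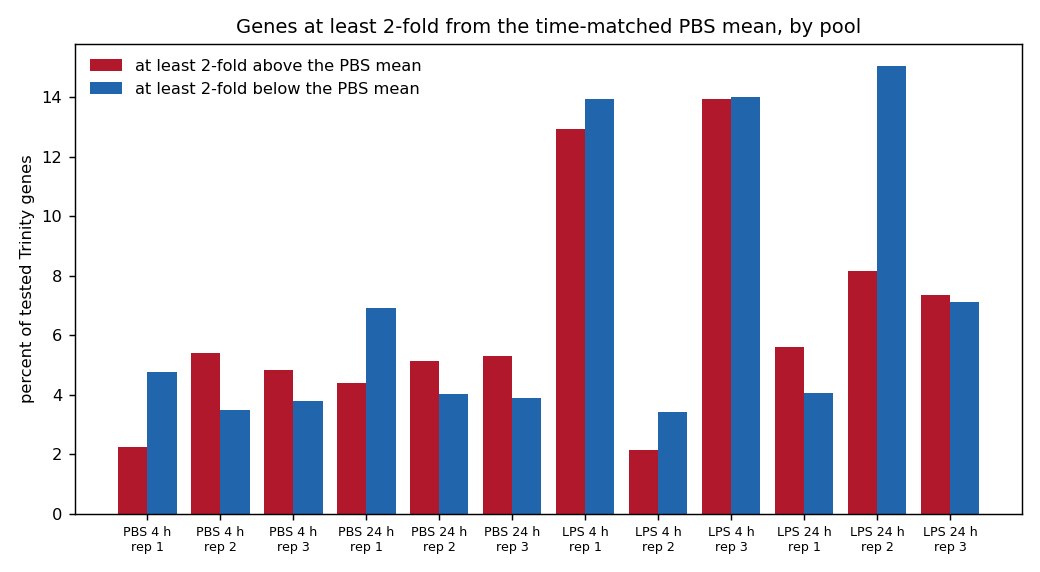
Percent of the 32542 tested Trinity genes (y axis) that lie at least 2-fold above or below the mean log2 CPM of the PBS pools of the same time, for each of the 12 pools (x axis). LPS pools are set against 3 PBS pools and PBS pools against the other 2. LPS 4 h replicates 1 and 3 reach 26.9% and 28.0% over both directions, while LPS 4 h replicate 2 is at 5.56%, below every PBS pool.

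With all pools in edgeR, more genes were called lower than higher at 24 h, and the called falls had the larger median. That order of the counts turned without LPS 4 h replicate 2, where 4827 genes fell and 5286 rose, and in limma-voom, with 469 falls and 1086 rises. In edgeR's quasi-likelihood test with Benjamini-Hochberg adjustment, 2534 of 32542 genes (7.79%) were called at an adjusted p below 0.05. Of these, 1512 (4.65% of tested genes) were lower and 1022 (3.14%) higher at 24 h. On the log2 scale the fold changes of the genes that fell had their median at -1.76 and their quartiles at -2.36 and -1.28. Those of the genes that rose had their median at 1.27 and their quartiles at 0.97 and 1.65. The median over all tested genes was -0.03. A fitted fall of at least 8-fold was seen in 188 called genes and a rise of that size in 13. Over all tested genes, called or not, falls of that size numbered 253 and rises 57.

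By the strict rule of 0 counts in a whole LPS group, almost no called change was on-off. Only 1 called gene had 0 counts in a whole LPS group, namely in the 3 pools at 24 h. Taking 3 counts per library as the floor, it was at least 15.6-fold lower at 24 h, and the median of the genes that fell was -1.76 with it at that bound. No gene had 0 counts in all LPS 4 h pools and at least 10 in every LPS 24 h pool. Calls were more frequent among abundant genes. With the tested genes in 4 equal bins by mean level, they made up 2.64% of the lowest bin and 12.5% of the highest. In the highest bin 662 genes fell and 353 rose. A mean of at least 100 CPM in either LPS group was reached by 301 of the genes that fell and 101 of those that rose. The share over all tested genes was not counted. As the calls rest on the same LPS pools, this is a description only.

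The genes that fell had occupied a large part of the RNA of some LPS 4 h pools. The 1512 genes held 13.1% of all counts in LPS 4 h replicate 1, 4.56% in replicate 2 and 13.9% in replicate 3. At 24 h they held 3.31%, 3.14% and 3.72% of the LPS pools. In PBS pools they held between 4.33% and 4.64% at 4 h and between 3.16% and 4.16% at 24 h. LPS 4 h replicates 1 and 3 were therefore above all other pools, and replicate 2 was inside the PBS 4 h range. The 1022 genes that rose held 1.99%, 3.65% and 1.96% of the LPS 4 h pools and 5.09%, 5.85% and 6.70% of the LPS 24 h pools, so the times did not overlap. These genes, like the 1512, were called on the same pools, so their summed shares had to differ between the times. PBS pools held 2.87% to 3.94% of counts in these genes, which is between the LPS 24 h pools and LPS 4 h replicates 1 and 3.

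The adjusted p-values were crowded close below the threshold. The lowest was 0.0284 (edgeR, Benjamini-Hochberg), while 9457 genes (29.1%) had an unadjusted p below 0.05, 5113 lower (15.7%) and 4344 higher (13.3%). In 2127 of the 2534 called genes the LPS 4 h and LPS 24 h pools did not overlap, and over all tested genes the share without overlap was 26.0%, 13.6% higher and 12.4% lower at 24 h. DESeq2 called 5727 genes (17.6%), 3070 lower (9.43%) and 2657 higher (8.16%). With limma-voom 1555 (4.78%) were called, and the split turned to 469 lower (1.44%) and 1086 higher (3.34%). Falls were thus the larger share in edgeR and DESeq2 but not in limma-voom.

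Leaving out LPS 4 h replicate 2 raised the count to 10113 of 33524 genes (30.2%), of which 4827 (14.4%) fell and 5286 (15.8%) rose. The lowest edgeR Benjamini-Hochberg adjusted p was then 1.4e-06. All but 1 of the 2534 calls, that is 2533, were called in the same direction there. The 2 fits share all other libraries, so this overlap is not an independent check. Falls had a median log2 fold change of -1.50 and rises of 1.36. DESeq2 called 11130 genes (33.2%) without that pool, 5382 lower (16.1%) and 5748 higher (17.1%). With limma-voom 9932 (29.6%) were called, 4955 lower (14.8%) and 4977 higher (14.8%). Falls were thus 47.7%, 48.4% and 49.9% of the calls of edgeR, DESeq2 and limma-voom without that pool, and none of the 3 tests had more falls than rises. Dropping LPS 4 h replicate 1 left 0 edgeR calls, with 5867 genes at an unadjusted p below 0.05, and dropping replicate 3 left 1. Dropping LPS 24 h replicate 1 left 260, of which 20 (7.69%) were falls. Dropping replicate 2 of that group left 0, with 7452 genes at an unadjusted p below 0.05, and dropping replicate 3 left 1. The other tests were not run without these 5 pools. The PBS pools, which bear on the spread, scaling and filter of the fit, gave 889 to 1673 calls when 1 was dropped. The count of calls therefore depended on single pools of both times.

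**Figure D2:**
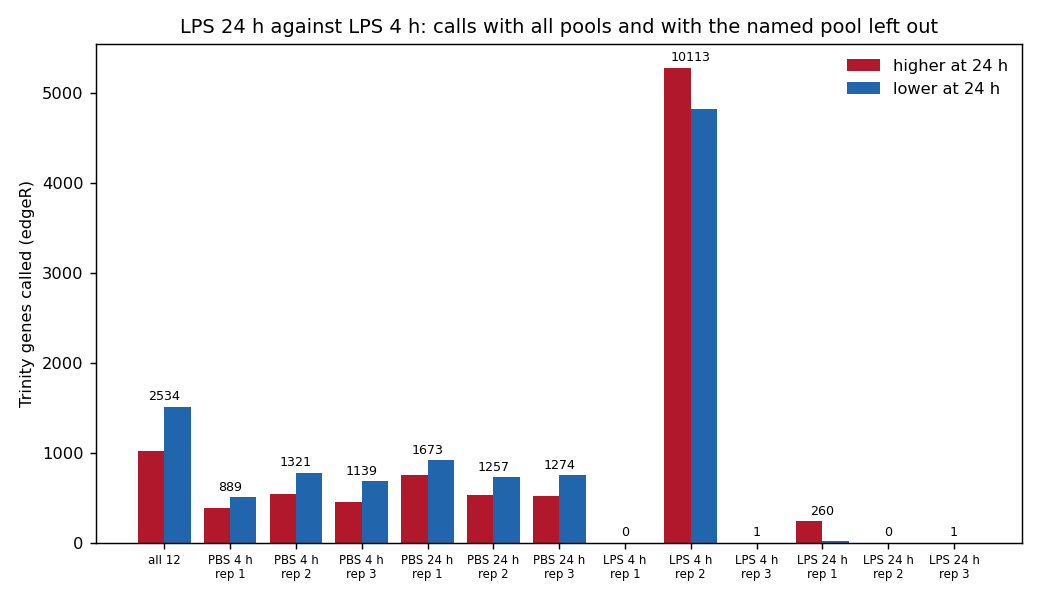
Number of Trinity genes called by edgeR between LPS 24 h and LPS 4 h (y axis), higher and lower at 24 h as separate bars, with all 12 libraries and with each pool left out (x axis). The number on top of each pair of bars is the total, which is 2534 with all pools, 10113 without LPS 4 h replicate 2 and 0 without LPS 4 h replicate 1 or LPS 24 h replicate 2.

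The PBS pools gave a reference level for each change. A called gene was counted as a return where the LPS 4 h mean was at least 2-fold from the PBS 4 h mean, on the side it then left, and the LPS 24 h mean was within 2-fold of the PBS 24 h mean. It was counted as new at 24 h where the LPS 4 h mean was within 2-fold of PBS 4 h and the LPS 24 h mean at least 2-fold from PBS 24 h in the direction of the change. Means were of log2 CPM. Distances from PBS were not tested, and since they use the same LPS pools as the calls, a called gene is more likely than others to be far from PBS at one of the times. The classes are thus a description.

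With all pools, return was the most frequent class among the genes that fell. Among those that rose, a new level was more frequent than return, but this order turned without LPS 4 h replicate 2, with 2346 returns and 506 new levels. Of the 1512 genes that fell, 754 (49.9%) returned from a level above PBS, and 57 (3.77%) were newly low at 24 h. Of the 1022 that rose, 123 (12.0%) returned from a level below PBS, and 359 (35.1%) were newly high at 24 h. Over all tested genes with a negative log2 fold change 9.85% had the return pattern and 8.96% the new pattern. With a positive one the shares were 12.1% and 6.65%, so the share of returns among called rises was at that of all tested genes. Called genes near the 2-fold line were not rare: 246 lay within 0.1 log2 units of it at 4 h and 185 at 24 h.

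**Figure D3:**
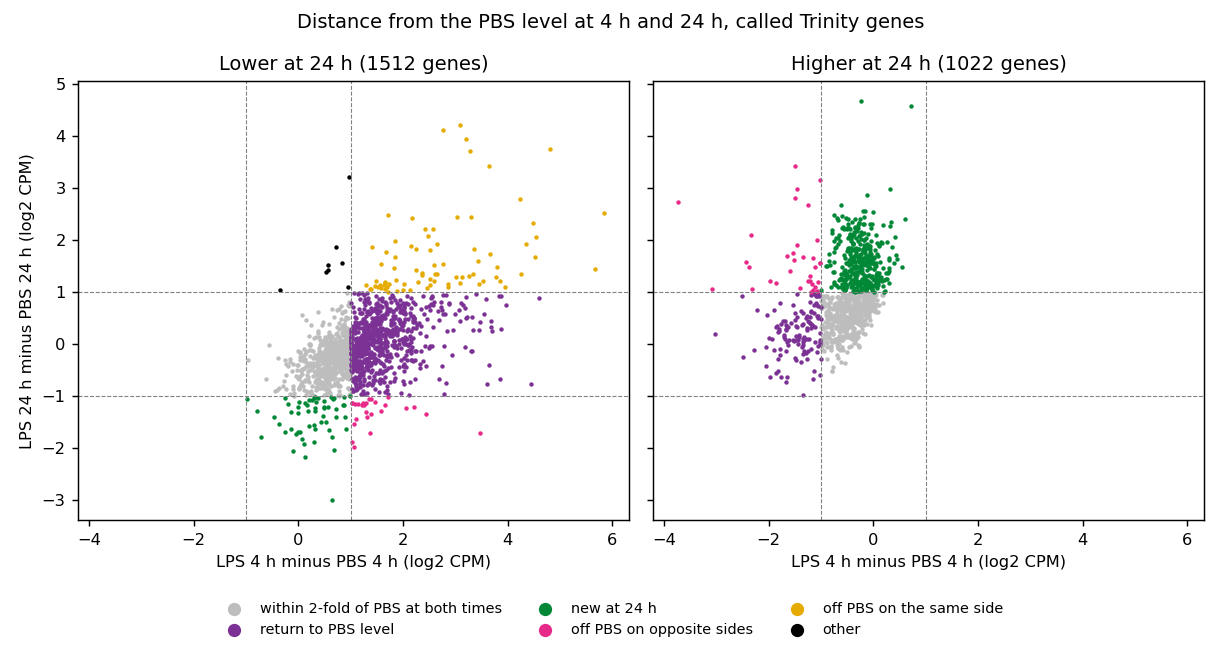
Mean log2 CPM of LPS pools minus that of PBS pools at 4 h (x axis) and at 24 h (y axis), with 1 point for each of the 2534 called Trinity genes, in separate panels for genes lower and higher at 24 h. Dashed lines mark 2-fold. The 754 genes that returned lie to the right between the horizontal lines of the first panel, and the 359 genes newly high at 24 h lie above the upper line of the second.

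The split between return and new levels depended on LPS 4 h replicate 2, most of all for the genes that rose. Without it, 2467 of 4827 falls (51.1%) and 2346 of 5286 rises (44.4%) were returns. New levels were 174 of the falls (3.60%) and 506 of the rises (9.57%). Returns from below thus went from 123 to 2346 genes, against 754 to 2467 for returns from above and 359 to 506 for new high levels. Over all pools, 1912 tested genes had the pattern of a return from below and 6.43% of them were called, against 45.6% of the 1653 with that of a return from above.

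The 754 genes that returned from above were high in 2 of the 3 LPS 4 h pools. Relative to the PBS 4 h mean, their median log2 CPM was 2.06 in LPS 4 h replicate 1, 0.10 in replicate 2 and 2.26 in replicate 3. It was -0.26, -0.28 and -0.21 in the LPS 24 h pools. The PBS 24 h pools lay at -0.34, -0.28 and -0.39, so both LPS and PBS pools at 24 h were below the PBS 4 h level. LPS 4 h replicate 2 was inside the range of the PBS 4 h pools for 345 of these genes (45.8%), against 52.2% over all tested genes. Replicates 1 and 3 were inside it for 1 and 2 genes, against 26.5% and 27.3% over all tested genes. The class asks for a high LPS 4 h mean, so with replicate 2 near PBS it pushes replicates 1 and 3 out of that range. The group mean was 1.47 ± 1.19 at LPS 4 h and -0.25 ± 0.03 at LPS 24 h (SD, n = 3 each).

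How far these genes came back is bounded by the class, which asks for a level within 2-fold of PBS at 24 h. By the median gene, 95.6% of the log2 distance from PBS at 4 h was gone at 24 h, with quartiles of 75.8% and 117%. The LPS 24 h mean was inside the range of the 3 PBS 24 h pools for 350 of the 754 (46.4%), and over all tested genes that share was 44.8%. It lay below the PBS 24 h mean for 337. These genes held 7.72% and 8.57% of the counts of LPS 4 h replicates 1 and 3, 2.07% of replicate 2, and at most 1.74% of an LPS 24 h pool. PBS pools held 1.34% to 2.08%. Without LPS 4 h replicate 2, the median share gone was 98.0% over 2467 genes, and 1232 of them were inside the PBS 24 h range.

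The 123 genes that returned from below were low in all LPS 4 h pools, replicate 2 the least. Their median log2 CPM relative to the PBS 4 h mean was -1.90, -0.70 and -1.65 in LPS 4 h replicates 1 to 3. It was 0.27, 0.36 and 0.21 in the LPS 24 h pools, and between -0.07 and 0.29 in the PBS 24 h pools. LPS 4 h replicate 2 was inside the PBS 4 h range for 19 (15.4%) of them, against 52.2% over all tested genes. At 24 h they lay above the PBS 24 h mean in 89 cases. The choice of genes with all pools favours those on which replicate 2 moved with the others. Among the 2346 genes chosen without it, 2323 also passed the filter of the 12-library fit, and there the left-out replicate 2 had a median of -0.07. Replicates 1 and 3, whose mean the choice asks to be low, were at -1.63 and -1.54, and PBS 4 h pools between -0.17 and 0.11. The median share of the distance gone at 24 h was 98.3% in those 2346.

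The 359 genes newly high at 24 h showed another order of the pools. Their median log2 CPM relative to the PBS 4 h mean was 0.87, 1.43 and 1.49 in LPS 24 h replicates 1 to 3, so replicate 1 was lowest. PBS 24 h pools were at -0.30, -0.36 and -0.19. LPS 4 h replicates 1 and 3 were at -0.45 and -0.55, below every PBS pool, and replicate 2 was at 0.29, above every PBS pool. The order of the 4 h pools was the same in the 500 such genes chosen without replicate 2 and measured in all libraries, at -0.36 and -0.42 for replicates 1 and 3 and 0.32 for replicate 2. PBS 4 h pools ran there from -0.13 to 0.08. The class sets a ceiling on the distance of the LPS 4 h mean from PBS 4 h and pushes PBS 24 h pools down, so the gap to the PBS 24 h pools is in part made by the choice.

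The PBS pools of these genes were lower at 24 h than at 4 h. The median of the PBS 24 h minus PBS 4 h means was -0.28 log2 CPM in the 359 genes, and the LPS 24 h mean exceeded PBS 24 h by a median of 1.56. Taking the mean of all 6 PBS pools as the level at both times left 356 new rises and 150 returns from below, and gave 930 returns from above and 73 new falls. With the range of the PBS pools in place of the 2-fold line, 217 rises counted as new and 563 falls as returns.

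The 57 genes newly low at 24 h were few and mostly of low level, with a median mean log2 CPM of 1.09 against 3.60 for the returns from above. Relative to the PBS 4 h mean they stood at -1.18, -1.51 and -1.42 in the LPS 24 h pools and at 0.72, -0.11 and 0.31 in the LPS 4 h pools. The PBS pools ran from -0.15 to 0.18 over both times. The LPS 24 h pools were below all others by these medians, which the choice of the genes on the same pools largely sets.

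**Figure D4:**
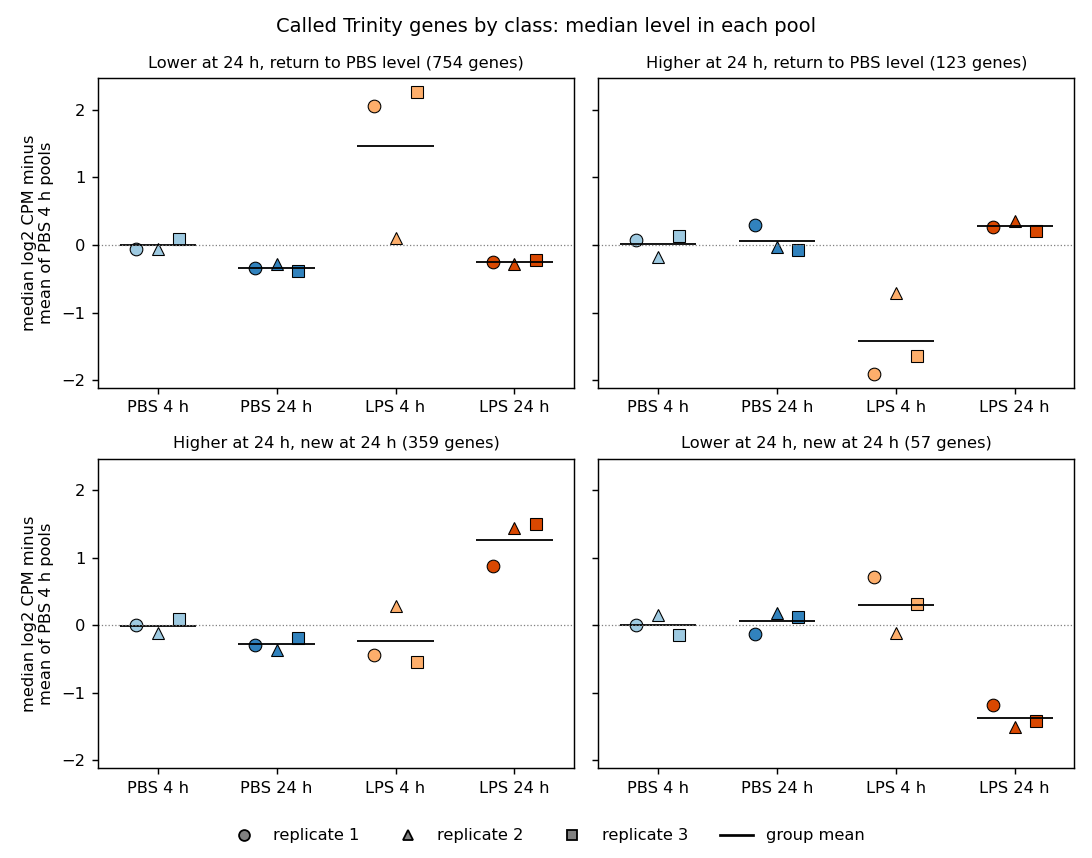
Median log2 CPM over the genes of a class, minus the mean of the PBS 4 h pools (y axis), in each pool of the 4 groups (x axis). Panels show the 754 and 123 genes that returned and the 359 and 57 genes new at 24 h, symbols mark replicate numbers and lines the mean of 3 pools. LPS 4 h replicate 2 lies near PBS for the 754 returns from above, at 0.10 against 2.06 and 2.26.

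Another pattern among the genes that fell was a level still above PBS at 24 h. In 79 genes (5.22% of the called falls) both LPS means were at least 2-fold above the PBS pools of their time, and 321 tested genes with a negative change (1.91%) were off PBS on the same side at both times. Their median distance was 2.52 log2 CPM at 4 h and 1.36 at 24 h, and the median share of the 4 h distance gone was 36.9%. Their PBS 24 h minus PBS 4 h difference had a median of -1.38 log2 CPM. Relative to the PBS 4 h mean, the LPS 24 h pools stood at -0.16, 0.21 and 0.25, the PBS 24 h pools at -1.32, -1.30 and -1.57, and the LPS 4 h pools at 3.58, 0.41 and 3.76. By the PBS 4 h level these genes had thus returned. That they had not by the PBS 24 h level is set by the class. The class also favours genes with low PBS 24 h pools, so their PBS difference is in part made by the choice. With all pools, no called gene that rose was off PBS on the same side at both times, against 141 tested genes with a positive change (0.895%). Without LPS 4 h replicate 2, 26 called rises (0.49%) and 241 called falls (4.99%) were.

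Another 60 called genes crossed the PBS level, with LPS means at least 2-fold off on opposite sides, which is 2.37% of the called genes and 1.12% of all tested genes. Without LPS 4 h replicate 2, 292 of the called genes (2.89%) crossed it. Of the 60 genes, 34 went from below to above and 26 from above to below. In the 34 genes the LPS 4 h pools stood at -1.75, -0.67 and -1.74 relative to the PBS 4 h mean, and the LPS 24 h pools at 0.72, 0.93 and 0.93. Their PBS 24 h pools lay between -1.03 and -0.64, below the PBS 4 h mean. In the 26 genes the LPS 4 h pools stood at 2.02, 0.16 and 1.82 and the LPS 24 h pools at -0.62, -1.14 and -0.73. Their PBS pools ran from -0.35 to 0.47 at 4 h and from 0.16 to 0.81 at 24 h. The class asks for LPS 24 h means far from PBS 24 h. It thus favours low PBS 24 h pools in the 34 genes and high ones in the 26.

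With all pools, the largest class was made of changes whose group means stayed within 2-fold of PBS at both times. It held 1094 of the called genes (43.2%), 588 that fell and 506 that rose, against 77.4% of all tested genes. This order turned without LPS 4 h replicate 2, where 4813 calls (47.6%) were returns and 4050 (40.0%) stayed within 2-fold at both times. The 588 went from a median of 0.64 log2 CPM above PBS at 4 h to 0.27 below at 24 h. The 506 went from 0.46 below to 0.56 above. Relative to the PBS 4 h mean, the LPS 4 h pools stood at medians of 0.93, -0.06 and 0.98 for the 588. For the 506 they stood at -0.78, 0.01 and -0.55. LPS 4 h replicate 2 was thus near PBS in both sets, and the 4 h means include it. Both sets were well expressed, with median mean log2 CPM of 4.26 and 4.11, and the rises held 3.17% to 3.73% of the LPS 24 h counts. The LPS 24 h mean was inside the PBS 24 h range for 78 of the 506 rises (15.4%) and 233 of the 588 falls (39.6%). Over all tested genes that share was 44.8%. The remaining 8 called genes fitted no class.

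The naming rule took the largest change of each class among well-expressed genes called with and without LPS 4 h replicate 2, which left 239, 37, 170 and 14 candidates for returns from above, returns from below, new rises and new falls. TRINITY_DN583_c1_g1 stood for the returns from above. It was at 215, 8.41 and 303 CPM in LPS 4 h replicates 1 to 3 and at 4.18, 8.20 and 4.95 CPM in the LPS 24 h pools. PBS pools were at 13.7, 10.7 and 13.5 CPM at 4 h and 7.26, 3.05 and 2.81 CPM at 24 h. Only LPS 4 h replicates 1 and 3 were high, and replicate 2 was below all PBS 4 h pools and just above the highest LPS 24 h pool. By edgeR it changed by -4.93 log2 units (SE 1.00, Benjamini-Hochberg adjusted p = 0.0294), and by -5.48 without LPS 4 h replicate 2 (adjusted p = 1.61e-05). Of its 2 isoforms, isoform 2 carried nearly all of the signal, with a mean of 170 CPM at LPS 4 h against 5.85 for isoform 1.

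TRINITY_DN4284_c3_g1, with a single isoform, returned from below. It was at 2.50, 8.90 and 4.44 CPM in the LPS 4 h pools and at 20.5, 25.3 and 22.7 CPM in the LPS 24 h pools. PBS pools were at 19.8, 11.4 and 16.3 CPM at 4 h and at 23.2, 14.2 and 13.9 CPM at 24 h. All LPS 4 h pools were below all other pools, and the LPS 24 h pools overlapped those of PBS 24 h. The edgeR estimate was 2.11 log2 units (SE 0.40, Benjamini-Hochberg adjusted p = 0.0286), or 2.73 without LPS 4 h replicate 2 (adjusted p = 0.000217).

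TRINITY_DN19522_c0_g1, also with a single isoform, was new at 24 h. It was at 26.1, 40.0 and 65.8 CPM in the LPS 24 h pools and at 4.87, 11.2 and 2.79 CPM in the LPS 4 h pools. PBS pools were at 7.56, 10.5 and 9.48 CPM at 4 h and at 4.70, 8.51 and 9.48 CPM at 24 h. All LPS 24 h pools were above all other pools. Its rise was 2.81 log2 units in edgeR (SE 0.50, Benjamini-Hochberg adjusted p = 0.0284), and 3.52 without LPS 4 h replicate 2 (adjusted p = 0.000275).

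TRINITY_DN30687_c0_g1, with a single isoform, was newly low at 24 h. It was at 5.44, 4.39 and 4.49 CPM in the LPS 24 h pools and at 36.3, 9.50 and 23.6 CPM in the LPS 4 h pools. PBS pools were at 19.6, 22.2 and 5.60 CPM at 4 h and at 12.0, 9.49 and 29.5 CPM at 24 h. The LPS 24 h pools were the lowest, but PBS 4 h replicate 3 lay just above them, so the PBS level of this gene was itself variable. Between the times edgeR gave -2.28 log2 units (SE 0.60, Benjamini-Hochberg adjusted p = 0.0442), and -2.65 without LPS 4 h replicate 2 (adjusted p = 0.0065). All 4 named genes lost their call when LPS 4 h replicate 1 or 3, or LPS 24 h replicate 2 or 3, was dropped, with Benjamini-Hochberg adjusted p in edgeR between 0.106 and 0.178. Dropping LPS 24 h replicate 1 left only TRINITY_DN19522_c0_g1 called, and with the LPS libraries alone none of the 4 was (adjusted p = 0.145 for each, edgeR). TRINITY_DN583_c1_g1 was not called in limma-voom (adjusted p = 0.0864). TRINITY_DN30687_c0_g1 was not called in limma-voom (adjusted p = 0.0719), nor in edgeR with no expression filter (0.0561) or without replicate 1 or 2 of PBS 4 h (0.062 and 0.056) or of PBS 24 h (0.0568 and 0.054).

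**Figure D5:**
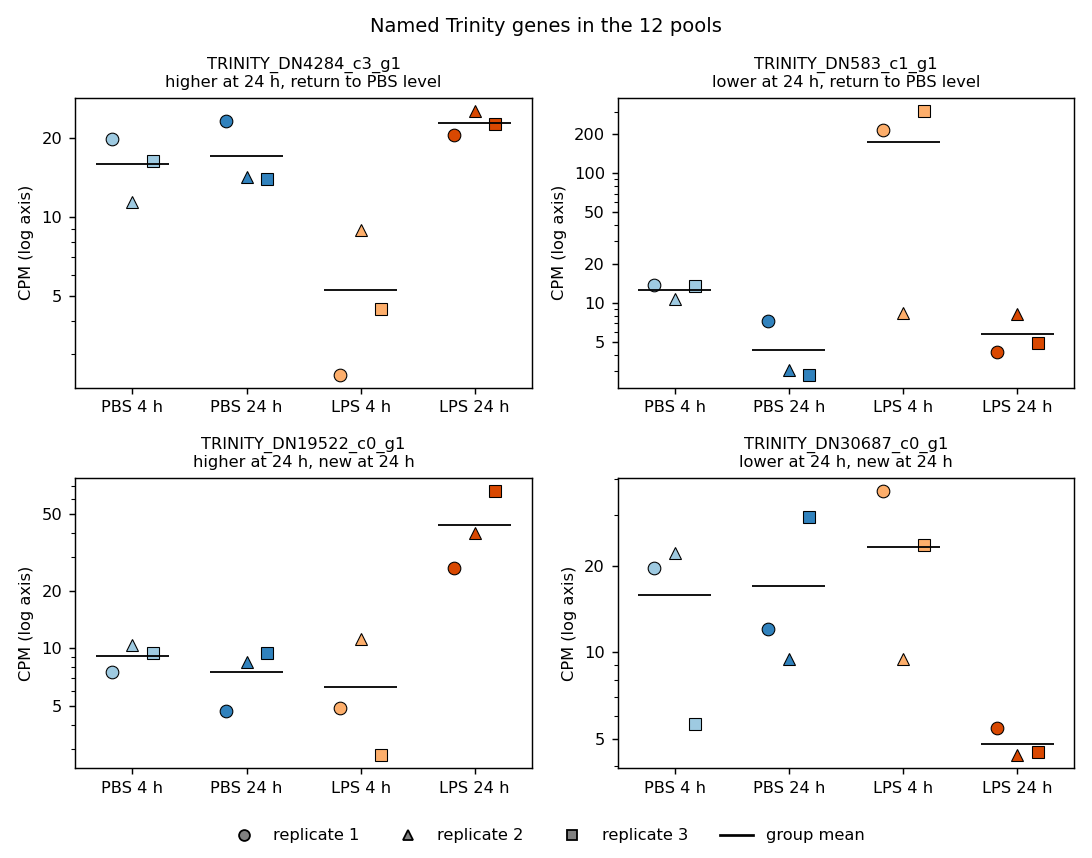
CPM (log axis) of the 4 named Trinity genes in each of the 12 pools, by group (x axis), with replicate numbers as symbols and lines at the group mean. TRINITY_DN583_c1_g1 reaches 215 and 303 CPM in LPS 4 h replicates 1 and 3 and 8.41 CPM in replicate 2, and TRINITY_DN19522_c0_g1 is highest in the 3 LPS 24 h pools.

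Few called genes held an isoform that moved against the gene, and whether a change sat in 1 isoform while others stayed level was not tested. Of 161 genes that rose and hold several isoforms, 160 had an isoform at a mean of at least 1 CPM over the LPS pools, and in 1 of these such an isoform lay at least 2-fold in the other direction. Among the genes that fell, 239 could be examined in this way and 9 had such an isoform. The share over all tested genes with several isoforms was not counted. As the genes were called on the sum of their isoforms, the choice itself leaves little room for such cases. The most abundant isoform was the same in all LPS 4 h pools and the same in all LPS 24 h pools for 3008 of the 4359 tested genes with several isoforms. It differed between the times in 26 of them (0.864%), of which 4 were called. Of all tested genes with several isoforms, 9.29% were called. In PBS pools it differed in 19 of 3092 (0.614%). Without LPS 4 h replicate 2 it differed in 108 of 3148, where fewer LPS 4 h pools had to share their most abundant isoform. The split of reads among isoforms is an estimate, and these counts were not tested.

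Where LPS 4 h replicate 2 lay between the times was described on genes chosen without it. The genes were called there, differed at least 2-fold and had a mean log2 CPM of 1 or more. For each, the LPS 24 h mean was set to 0 and the mean of LPS 4 h replicates 1 and 3 to 1. Over 2465 genes that fell, replicate 2 had a median position of 0.152, and PBS 4 h pools were at 0.168 to 0.192 and PBS 24 h pools at 0.00336 to 0.0501. Over 2696 genes that rose, it was at 0.217, with PBS 4 h pools at 0.161 to 0.365 and PBS 24 h pools at 0.0906 to 0.258. Replicate 2 was thus near the PBS pools in both sets. Among the 361 of these genes newly high at 24 h it was at 0.519, below PBS 4 h pools at 0.680 to 0.797 and PBS 24 h pools at 0.869 to 0.955, which the class pushes towards 1. By chi-square per degree of freedom between libraries over genes, the library closest to LPS 4 h replicate 2 was LPS 24 h replicate 1 (27.6), which was the closest of all pairs of libraries. The next was PBS 4 h replicate 1 (34.9), while LPS 4 h replicates 1 and 3 were at 184 and 171, and pairs within a group began at 43.9. Whether this pool is what its label says cannot be told from these data, and every LPS 4 h mean over 3 pools includes it. Why it differed from the other LPS 4 h pools was not tested.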

How the data were processed

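RNA from 12 pools of meagre spleen was sequenced with a directional kit, per the labels' protocols. The authors deposited whole-number estimated counts per assembled transcript. Trimmomatic 0.39, FastQC, Bowtie2, RSEM and DESeq2 are listed, without their roles, per the submitters' processing notes. As RSEM yields expected counts, these deposited values were taken as rounded ones. Which assembly, annotation and strand setting were used is not given in the sources used here.

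Counts were summed per Trinity gene and tested with edgeR 4.0.16 (R 4.3.3; TMM factors 0.799 to 1.19, filterByExpr, robust quasi-likelihood test) in a model of 4 group means over all 12 libraries, two-sided, with Benjamini-Hochberg adjustment over 32542 genes. Log2 CPM used a prior count of 2. Standard errors come from the F statistic. DESeq2 1.42.0 and limma 3.58.1 were alternatives. The class margin was 2-fold. Named genes were the largest change per class among genes called with and without LPS 4 h replicate 2, with LPS pools not overlapping and a mean log2 CPM of at least 3. Members, classes and rules were chosen with earlier results of these data known.

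On simulated counts for the 32542 genes, the test recovered 9 of 67 genes with a 2-fold change, 48 of 67 with 4-fold and 64 of 66 with 8-fold in this comparison, and it called 8 unchanged genes. Only 200 genes, with a mean log2 CPM above 1, were changed, and all others had 1 mean over all libraries. No simulated pool departed from its group as LPS 4 h replicate 2 did, so these shares need not hold for the real counts. No pair of libraries agreed within sampling noise (chi-square per degree of freedom at least 27.6, between LPS 4 h replicate 2 and LPS 24 h replicate 1). Floors cover counting error only.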

Additional observations from a re-analysis of the deposited data

How the results depend on the processing

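With 2534 genes called by edgeR in LPS 24 h against 4 h, both other scalings, both filters, no robust estimation and genes of 1 isoform alone gave 2103 to 2820 calls. DESeq2 gave 5727, limma-voom 1555 and an adjusted p below 0.1 gave 5892. The count was 0 with edgeR on the 6 LPS libraries alone (6973 genes at an unadjusted p below 0.05), on transcripts (9848), with an adjusted p below 0.01 (9457) and with a 2-fold threshold (2154). With each pool left out it ran from 0 to 10113. Chosen after seeing the data, fits without LPS 4 h replicate 2 gave 11130 (DESeq2), 9932 (limma-voom), 8892 (LPS libraries alone) and 8999 (transcripts).

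Returns from below, returns from above, new rises and new falls (123, 754, 359 and 57) ran with each pool left out from 0 to 2346, 0 to 2467, 0 to 506 and 0 to 174. DESeq2 gave 427 returns from below and 197 new falls. An adjusted p below 0.1 gave 420, 549 new rises and 196 new falls. A margin of 1.5-fold gave 219 returns from below and 120 new falls, and the range of PBS pools 217 new rises. All 4 were 0 with the LPS libraries alone. The causes were not tested. Counted per gene and setting, the named genes kept their direction in all 91 combinations and their call in 53. TRINITY_DN19522_c0_g1 kept its call in 16 of 23 settings and TRINITY_DN4284_c3_g1 in 15 of 23. For TRINITY_DN583_c1_g1 it was 13 of 22, and for TRINITY_DN30687_c0_g1 only 9 of 23.

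Under the replicate block, which adds the pool number to the model, edgeR called 0 genes (8116 at an unadjusted p below 0.05), so all 4 classes were 0. Deviations of same-numbered LPS pools correlated at 0.00, 0.06 and -0.04, and those of LPS pools with different numbers at -0.24 to 0.27. PBS pools were not examined in this way. With 3 pools per group these values cannot decide whether pools of the same number belong together. The numbers were not taken as pairs.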
